A study of Mus musculus with 12 samples.

Results

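Pim1, Pim2 and Pim3 make up the PIM kinase family, and their 3 rows were taken out of the 30630 genes listed for each tumor by matching the mouse Ensembl gene identifiers to gene symbols. All 3 members passed the filter on low values (at least 0.1 FPKM in at least 6 tumors) and were among the 19018 genes tested. FPKM is the number of fragments per length of transcript and per depth of the library, so levels of different genes are compared per length. The family was chosen by the differences between swimming and control tumors seen in an earlier pass over these 12 tumors, so the group differences of the 3 members are given as a description and carry no test.

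RNA was sequenced from subcutaneous tumors of CT-26 cells, a mouse colon carcinoma line of BALB/c origin, grown in the right flank of male BALB/c mice after injection in Matrigel. The mice were 4 to 6 weeks old at purchase. The swimming group (6 tumors) swam for 3 weeks on 6 days a week, in 2 daily sessions of up to 30 min, and the control group (6 tumors) carried the same tumors without swimming. Both groups were injected alike into immunocompetent mice, and no engineered allele is named for either. The question was which transcripts of the tumor differed after training. Each library came from bulk tumor tissue, so fewer cells of a type and less RNA per cell cannot be told apart in any value below. Of the epithelial markers, Krt20 stood at a mean of 139.6 FPKM, while Epcam, Cdx2 and Vil1 stayed below 0.1 FPKM on average, so these 3 defining markers of colon epithelium were close to absent. The summed FPKM per tumor was between 380139 and 407109, the number of genes above 0 was between 22293 and 23974, and the relative depth read from the smallest steps of the values ran from 0.694 in control 2 to 1 in the deepest library.

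PIM kinases are serine/threonine kinases that lack a regulatory domain and are active once translated, so their activity follows the amount of protein and therefore transcription, RNA stability and turnover. Cytokine receptors induce them through JAK kinases and STAT factors, and NF-kappa-B adds to this in lymphocytes. The kinases phosphorylate regulators of survival, the cell cycle and translation, they overlap in targets with AKT, and Pim1 is known as a partner of Myc in mouse lymphoma. Pim1 is the founding member, Pim2 is best known in lymphoid cells, and Pim3 is known from epithelial tumors of the colon, liver and pancreas.

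The 3 genes lie on different chromosomes, and their upstream sequences are shown because the members differed in level and in their relation to other genes. In the GENCODE annotation of GRCm38, Pim1 (ENSMUSG00000024014) occupies chr17:29490753-29496112 on the plus strand with 6 exons and 4 coding transcripts of 7. Pim2 (ENSMUSG00000031155) occupies chrX:7878262-7883432 on the plus strand with 6 exons and 2 coding transcripts of 4. Pim3 (ENSMUSG00000035828) occupies chr15:88862186-88865726 on the plus strand with 6 exons and 1 coding transcript of 2. Exons of the antisense gene Gm26885 share 488 of the 3362 exonic bases of Pim1. No strand setting is given in the sources used here, so reads from Pim1 and from Gm26885 in those bases cannot be told apart. No gene shares exonic bases with Pim2 or Pim3.

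The 200 bases that end 51 bases before a RefSeq start of each gene (GRCm38.p6, plus strand) were read from RefSeq for all 3 members. They lie at chr17:29490535-29490734 for Pim1, chrX:7878056-7878255 for Pim2 and chr15:88861944-88862143 for Pim3. RefSeq lists 2 starts for Pim1, and only a single window is shown for it. Capitals mark a CCAAT box (CCAAT, or ATTGG on the other strand) and a GC box (GGGCGG, or CCGCCC on the other strand).
Pim1: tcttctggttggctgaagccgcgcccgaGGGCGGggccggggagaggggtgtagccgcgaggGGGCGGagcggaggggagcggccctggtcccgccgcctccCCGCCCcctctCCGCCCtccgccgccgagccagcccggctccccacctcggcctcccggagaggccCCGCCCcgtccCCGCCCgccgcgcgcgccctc
Pim2: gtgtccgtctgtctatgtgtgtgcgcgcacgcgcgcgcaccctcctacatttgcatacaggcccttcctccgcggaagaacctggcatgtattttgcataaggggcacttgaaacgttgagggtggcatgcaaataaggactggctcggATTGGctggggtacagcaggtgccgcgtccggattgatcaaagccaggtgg
Pim3: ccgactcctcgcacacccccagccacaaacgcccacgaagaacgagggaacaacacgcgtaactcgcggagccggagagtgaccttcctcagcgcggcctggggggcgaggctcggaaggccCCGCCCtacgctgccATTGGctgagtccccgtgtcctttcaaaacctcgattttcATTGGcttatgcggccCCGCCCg

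The Pim1 window had a GC content of 82.5% and held 6 GC boxes and no CCAAT box. The Pim2 window had a GC content of 57.5% with 1 CCAAT box and no GC box. The Pim3 window had a GC content of 65.0% and held 2 CCAAT boxes and 2 GC boxes. Among 32851 promoter windows of the same length, 28.4% held a CCAAT box and 24.6% a GC box, and the median GC content was 51.5%. The letters of a STAT site (TTCNNNGAA, in 5.76% of windows), of the Myc E-box (CACGTG, in 4.34%) and of the ACGTG form of the hypoxia response core (in 12.9%, which the E-box contains) were not in these windows of the 3 members on either strand. The GCGTG form of that core was not searched. Its letters on the other strand, CACGC, are in the Pim2 and Pim3 windows printed above, and its share among all windows is not known.

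In every tumor the order of the levels was the same, with Pim3 above Pim1 and Pim1 above Pim2 in 12 of 12 tumors. Pim3 averaged 77.1 FPKM and stood above 96.3% of the genes tested, Pim1 averaged 16.9 FPKM and stood above 82.1%, and Pim2 averaged 1.73 FPKM and stood above 39.9%. No neighbours in this order overlapped, since the lowest Pim3 value was 50.5 FPKM, the Pim1 values lay between 13.5 and 20.2 FPKM, and the highest Pim2 value was 2.35 FPKM.

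Pim3 was lower in the swimming tumors. In the control tumors 1 to 6 its level was 107.9, 90.3, 71.0, 108.1, 85.2 and 81.0 FPKM. In the swimming tumors 1 to 6 it was 70.0, 64.0, 66.5, 62.6, 50.5 and 68.3 FPKM. The groups did not overlap, but they nearly touched: the highest swimming tumor (swimming 1) lay 0.974 FPKM under the lowest control tumor (control 3), and the spread in the control group was wide, with control 1 and control 4 well above the other 4. The control mean was 90.6 ± 14.9 FPKM and the swimming mean 63.6 ± 7.0 FPKM (SD, n = 6 each), a ratio of 0.703. On the log2(FPKM + 1) scale the difference was -0.49 with a standard error of 0.11. All swimming tumors lay below all control tumors for 13 of the 19018 genes tested (0.0684%), and since the contrast chose the family, nothing is read from Pim3 being among them.

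Pim1, which is induced by many cytokines, had overlapping groups. Its level was 15.2, 13.5, 18.3, 17.5, 16.1 and 16.9 FPKM in the control tumors 1 to 6 and 17.9, 17.0, 20.2, 16.5, 15.1 and 18.9 FPKM in the swimming tumors 1 to 6. Control tumors averaged 16.2 ± 1.72 FPKM and swimming tumors 17.6 ± 1.80 FPKM (SD, n = 6 each). The log2 difference was 0.11 with a standard error of 0.08, and 4 of 6 swimming tumors lay above the control median. Without control 2, the shallowest library and the lowest Pim1 value, the log2 difference was 0.06.

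Pim2 was the least abundant member and also had overlapping groups. Its level was 2.19, 1.61, 1.85, 1.25, 1.10 and 1.71 FPKM in the control tumors 1 to 6 and 1.49, 1.80, 1.64, 1.83, 2.35 and 1.87 FPKM in the swimming tumors 1 to 6. The highest value of all was in swimming 5 and the lowest in control 5. Control tumors averaged 1.62 ± 0.400 FPKM and swimming tumors 1.83 ± 0.291 FPKM (SD, n = 6 each). The log2 difference was 0.12 with a standard error of 0.11, and it was 0.06 without control 5. For this gene the pseudocount matters, and with a pseudocount of 0.01 the log2 difference was 0.20.

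**Figure D1:**
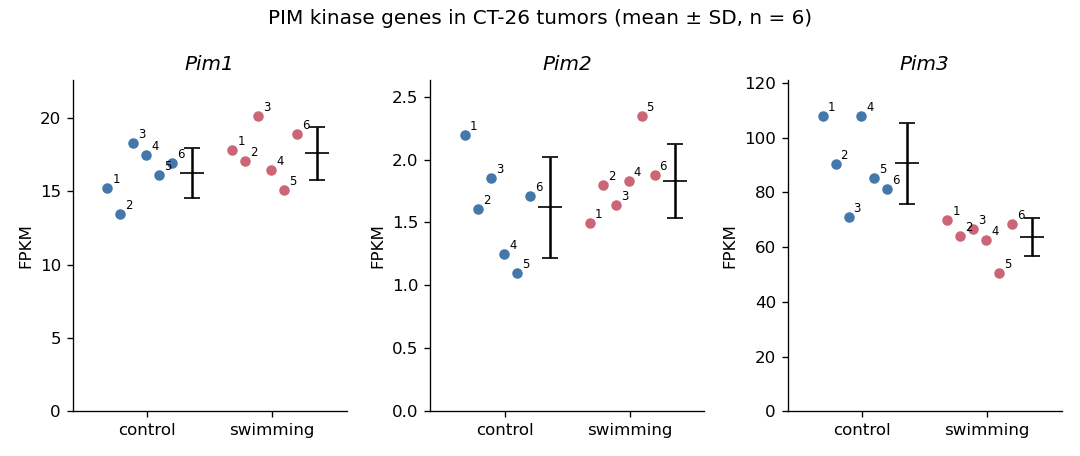
FPKM of Pim1, Pim2 and Pim3 in each of the 12 tumors, with the control group in blue, the swimming group in red, the tumor's number beside each point, and the group mean ± SD (n = 6) to the right of the points. For Pim3 every swimming tumor lies at or under 70.0 FPKM and every control tumor at or above 71.0 FPKM, while the groups overlap for Pim1 and Pim2.

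The family total followed Pim3, its most abundant member. The 3 levels summed to 108 ± 14.5 FPKM in control and 83.1 ± 8.21 FPKM in swimming tumors (SD, n = 6 each). Pim3 supplied 83.2 ± 3.17% of this sum in control and 76.5 ± 1.49% in swimming tumors, and Pim1 supplied 15.2 ± 2.97% and 21.2 ± 1.13%. The ratio of Pim3 to Pim1 was between 3.88 and 7.09 in the control tumors and between 3.30 and 3.92 in the swimming tumors, so the groups overlapped only at their edges, and its spread was wider in the control group (SD 1.22) than in the swimming group (SD 0.255). Among control tumors the coefficient of variation was 10.6% for Pim1, 24.7% for Pim2 and 16.4% for Pim3, and among swimming tumors it was 10.2%, 15.9% and 11%.

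No pair of members had a correlation from tumor to tumor that passed the threshold. To leave out the contrast by which the family was chosen, the group mean was subtracted from each tumor's log2 value before any correlation, and p-values came from 100000 permutations within groups (two-sided), adjusted by the Benjamini-Hochberg procedure over 72 relations. Pim1 and Pim2 had a Pearson r of -0.33 (p = 0.328, adjusted p = 0.738) and a Spearman rho of -0.27 (p = 0.430) over the 12 tumors. Its r was -0.12 within the control group and -0.70 within the swimming group, and ran from -0.49 without control 3 to -0.14 without swimming 5. Pim1 and Pim3 had an r of 0.12 (p = 0.737, adjusted p = 0.940) and a rho of 0.16 (p = 0.639), and without centring on the group r was -0.24. Within the control group r was -0.34 and within the swimming group 0.80, and it ran from -0.20 without swimming 5 to 0.45 without control 3. Pim2 and Pim3 had an r of -0.31 (p = 0.399, adjusted p = 0.785) and a rho of -0.33 (p = 0.362). That r was -0.03 among control tumors and -0.91 among swimming tumors, and it ran from -0.75 without control 1 (permutation p = 0.0198, adjusted p = 0.178) to -0.08 without swimming 5. The difference in r between the groups was not tested for any pair. Without the tumors farthest from the median of the first gene, r was -0.36, 0.11 and -0.29 for these pairs in the same order, with the group means taken over all 12 tumors, as in the other values without 2 tumors. With the means taken again over the 10 tumors left, r was -0.37, 0.11 and -0.26. These p-values measure only the spread between these tumors, each from a different mouse.

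Of the 10 genes and 13 marker lists set against Pim3, Myc had the highest correlation with it. Myc encodes a transcription factor that PIM kinases stabilise by phosphorylation, and it lies on the same chromosome as Pim3, at chr15:61985391-61990374. In the control tumors 1 to 6 the Myc level was 41.0, 31.9, 26.6, 40.6, 30.7 and 31.3 FPKM, and in the swimming tumors 1 to 6 it was 30.5, 25.0, 28.7, 28.5, 20.6 and 23.2 FPKM. Control 1 and control 4 had the highest values of both Myc and Pim3, control 3 had the lowest of the control group for both, and swimming 5 the lowest of the swimming group for both. After centring on the group r was 0.87 (p = 0.00101, adjusted p = 0.0364) and rho was 0.81 (p = 0.0047, adjusted p = 0.169) over the 12 tumors. Within the control group r was 0.98 and within the swimming group 0.71, and without control 1 and control 4 it was 0.79. The adjusted p passed the threshold for r and not for rho, and 9 of the 12 tests that left out 1 tumor (any control tumor, or swimming 1, 2 or 5) gave an adjusted p for r between 0.0540 and 0.179, while r itself stayed between 0.83 and 0.96. The ratio of Pim3 to Myc was 2.69 ± 0.0906 in control and 2.46 ± 0.272 in swimming tumors (SD, n = 6 each).

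Pim2 varied with the T cell markers. The list held 10 genes, among them Cd3d, Cd3g, Cd8a, Cd8b1, Trac, Cd5 and Lck, of which Lck, the kinase of the T cell receptor, was the most abundant with a mean of 2.26 FPKM. The summed level of the list was 13.0, 11.7, 11.9, 6.08, 5.07 and 7.15 FPKM in the control tumors 1 to 6 and 9.04, 16.3, 12.6, 15.3, 23.6 and 17.9 FPKM in the swimming tumors 1 to 6. Control 5 and control 4 were lowest in both Pim2 and the T cell markers, and swimming 5 was highest in both. The mean log2 level of the list and Pim2, both centred on the group, had an r of 0.90 (p = 6.0e-05, adjusted p = 0.00432) and a rho of 0.85 (p = 0.00119, adjusted p = 0.0857) over the 12 tumors. Within the control group r was 0.89 and within the swimming group 0.97, and without control 4 and control 5 it was 0.87. Without control 1 or control 3 the adjusted p for r was 0.0924 or 0.0569, and r stayed between 0.87 and 0.94 whichever tumor was left out. Taken singly, all 10 T cell genes had a positive r with Pim2, between 0.60 and 0.83. The same 10 genes had an r between -0.61 and 0.00 with Pim1 and between -0.56 and 0.08 with Pim3.

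**Figure D2:**
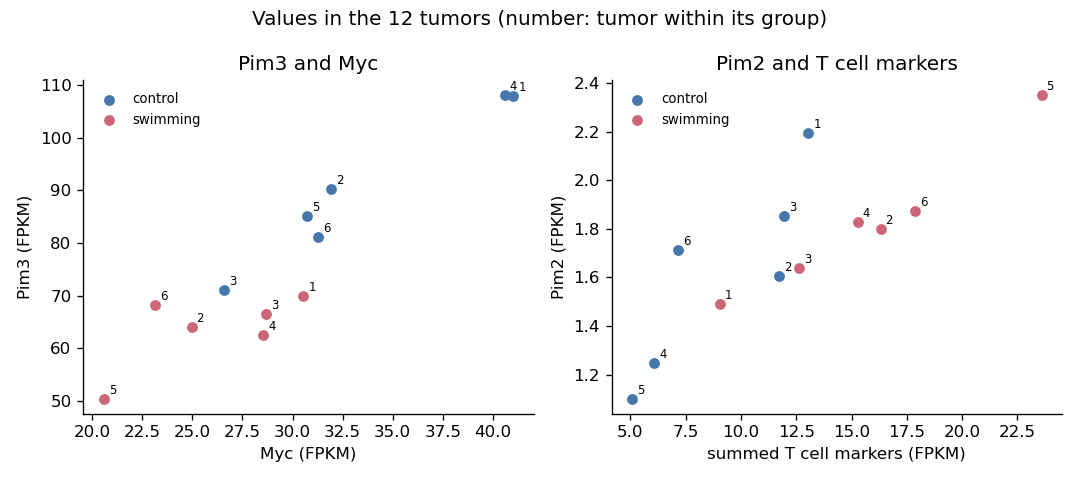
FPKM of Pim3 against Myc (left) and of Pim2 against the summed FPKM of 10 T cell markers (right) in each of the 12 tumors, before centring, with control tumors in blue, swimming tumors in red and the tumor's number beside each point. Control 1 and control 4 lie highest for Pim3 and Myc, and swimming 5 lies highest for Pim2 and the T cell markers and lowest for Pim3 and Myc.

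At an unadjusted p below 0.05 for r there were 13 relations of the 72, and only Pim3 with Myc and Pim2 with the T cell markers passed the adjusted threshold. The next were Pim2 with the proliferation markers (r = 0.66, rho = 0.71, adjusted p = 0.0845 for r) and Pim2 with Stat3, a factor downstream of cytokine receptors (r = 0.79, rho = 0.69, adjusted p = 0.108). Pim2 with the fibroblast markers (r = 0.71), with Cish (0.70) and with Stat5a (0.68) followed, each at an adjusted p of 0.194, and Pim2 with the B and plasma cell markers had an r of 0.61 (adjusted p = 0.259). Pim1 and Socs3, which encodes a STAT-induced feedback inhibitor, had an r of 0.67 (adjusted p = 0.234), and without control 2 and swimming 3 it was 0.44. Pim1 and Cish, another STAT-induced feedback gene, had an r of the opposite sign, -0.65 (adjusted p = 0.234), and without the same tumors it was -0.77. Of the 13 relations, those of Pim1 with marker lists had a negative r, -0.64 with the endothelial markers and -0.62 with the proliferation markers (adjusted p = 0.234 for both) and -0.62 with the macrophage markers (adjusted p = 0.259). Pim3 and the epithelial markers were not among the 13, with an r of 0.62 (permutation p = 0.0571, adjusted p = 0.259). That r rests on the mean log2 level of the 5 tested genes of the list, each with the same weight. The summed level of the list is another measure, and Krt20 supplied 83.3% of it. That sum was 193.8 ± 69.6 FPKM in control and 141 ± 19.8 FPKM in swimming tumors (SD, n = 6 each), and Krt20 itself was 154 ± 32.2 and 125 ± 19.1 FPKM. The control mean of the sum rested in part on control 4, at 323 FPKM against 134 to 212 FPKM in the other 5, and without it was 168 ± 32.4 FPKM (SD, n = 5). The highest Krt20 level of a control tumor was 194 FPKM, so other genes of the list contributed to the sum in control 4. The means of this list and of Pim3 were both lower in the swimming group, and the part of these markers in the Pim3 difference was not tested.

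**Figure D3:**
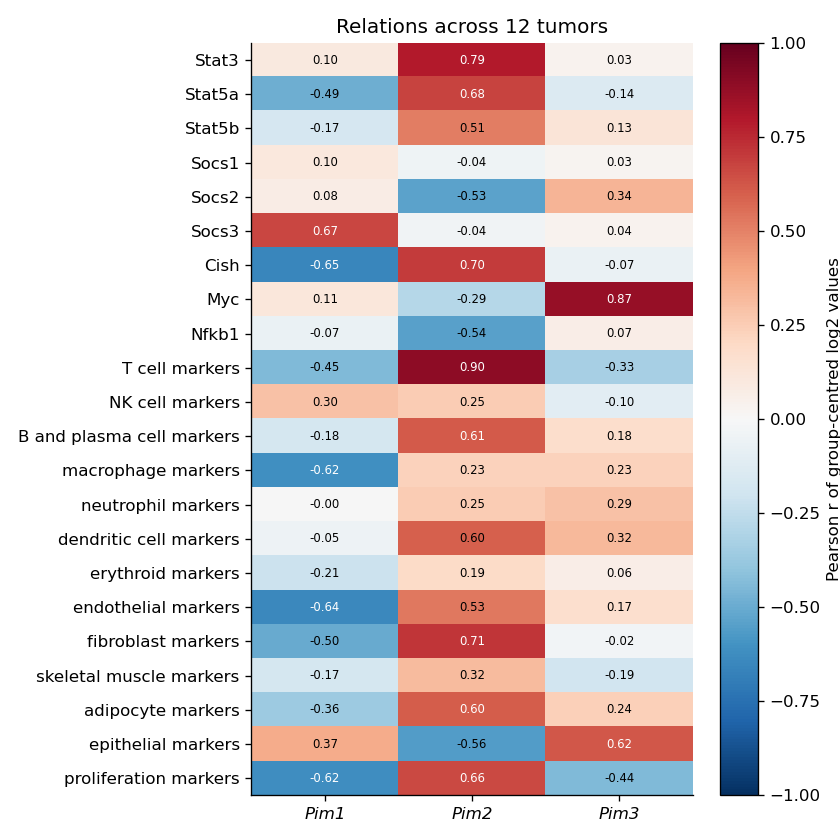
Pearson r over the 12 tumors between each PIM gene (columns) and 9 genes or 13 marker lists (rows), on log2 values centred on the group mean. Pim3 with Myc (0.87) and Pim2 with the T cell markers (0.90) are the darkest cells.

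The 4 protein-coding genes most like each member were sought among 10994 genes with a mean of at least 1 FPKM, by Pearson r on the centred values over the 12 tumors, which is a ranking and no test. For Pim1 these were Atp6ap2 (r = 0.88), Gpnmb (0.85), Vat1 (0.84) and Slc48a1 (0.84). For Pim2 they were Eml3 (0.90), Tbc1d22b (0.90), Pgghg (0.89) and C1qtnf9 (0.89), and for Pim3 they were Mcrip1 (0.89), Myc (0.87), Tmem62 (0.87) and Cldnd1 (0.87). Of 10994 genes, 1 in 100 had an r above 0.67 with Pim1, above 0.78 with Pim2 and above 0.65 with Pim3.

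On each side of each member the nearest gene that passed the filter on low values was taken, so genes between may have been left out. None of these 6 genes passed an unadjusted p of 0.05 in limma, against 5.56% of all genes tested. Creld2, 35503 bases before Pim3, was at 53.4 ± 8.11 FPKM in control and 50.9 ± 5.17 FPKM in swimming tumors (SD, n = 6 each). On the other side of Pim3, 1810021B22Rik, 205470 bases away, was at 1.07 ± 0.151 and 0.997 ± 0.219 FPKM. Gm26885, which overlaps Pim1, was at 0.638 ± 0.104 and 0.623 ± 0.141 FPKM. Tbc1d22b, 53673 bases from Pim1, was at 4.94 ± 0.333 and 4.82 ± 0.320 FPKM. Beside Pim2, Otud5 was at 14.2 ± 1.45 and 13.7 ± 0.515 FPKM and Slc35a2 at 3.27 ± 0.403 and 3.65 ± 0.389 FPKM.

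Of the other cell types a tumor can hold, the dendritic cell markers had a summed level of 5.27 ± 1.21 FPKM in control and 6.99 ± 1.31 FPKM in swimming tumors, 2 of 7 genes higher at an unadjusted p below 0.05 in limma, against 3.11% of all genes tested, and Itgax the most abundant at 2.31 FPKM. Among the NK cell genes 1 of 7 (Klrk1), 1 of 5 tested genes of B and plasma cells (Jchain) and 1 of 8 proliferation genes (Mki67) were higher, and none was lower. Pim2 is best known in lymphoid cells, and the B cell markers Ms4a1 and Pax5 stayed below 0.1 FPKM on average. No gene passed that threshold in either direction among the macrophage, neutrophil, erythroid, endothelial, fibroblast, skeletal muscle, adipocyte and epithelial markers, against 5.56% of all genes tested. The most abundant genes of these lists were Gzmb (14.9 FPKM) for NK cells, Xbp1 (31.8) for B and plasma cells, C1qa (378.7) for macrophages, Mmp9 (9.94) for neutrophils, Hbb-bs (140.5) for erythroid cells, Cdh5 (14.8) for endothelium, Col1a2 (140.7) for fibroblasts, Acta1 (34.2) for muscle, Fabp4 (13.6) for adipocytes and Pcna (172.6) for proliferation, each as a mean over the 12 tumors. The part of these cells in the PIM levels was not tested.

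The genes around the kinases were then compared between the groups: 9 lists of cytokines, receptors, signalling factors, substrates and cofactors with 121 genes in the data, of which 117 were tested. At an unadjusted p below 0.05 in limma, 13 of 117 genes passed (11.1%), against 5.56% of all genes tested. Of these, 11 were higher in the swimming tumors, against 3.11% of all genes, and 2 were lower, against 2.46%. None passed the Benjamini-Hochberg adjusted threshold in limma, where 0 of 19018 genes (0%) passed, 1058 genes had an unadjusted p below 0.05, and the smallest adjusted p was 0.204. The median log2 difference over the 117 genes was 0.04, and over all genes it was 0.00. The count was 8 without control 5, where 4.38% of all genes passed, and 21 without swimming 1, where 7.59% passed.

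Among the cytokines that induce PIM kinases, 3 of 13 tested genes were higher at that threshold and none lower. Over all genes tested, 3.11% were higher and 2.46% lower. The median log2 difference over the 13 genes was 0.17. Il27, a cytokine of antigen-presenting cells, was at 0.345 ± 0.104 FPKM in control and 0.781 ± 0.258 FPKM in swimming tumors (log2 difference 0.40, SE 0.10, limma adjusted p = 0.889). Ifng, the interferon of T and NK cells, was at 0.367 ± 0.173 and 1.05 ± 0.583 FPKM, and its groups overlapped, since swimming 1 stood at 0.334 FPKM. Il15, which sustains T and NK cells, was at 1.96 ± 0.466 and 2.68 ± 0.272 FPKM. The groups of Il27 and Il15 overlapped as well. For Il27 the highest control tumor stood at 0.487 FPKM and the lowest swimming tumor at 0.426 FPKM. For Il15 these were 2.67 and 2.42 FPKM. Of 23 receptor genes 1 was higher, Il21r, which encodes the receptor of interleukin-21, at 1.87 ± 0.507 and 2.68 ± 0.745 FPKM with overlapping groups.

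Of the 11 genes of JAK kinases and STAT factors 5 were higher and none lower, against 3.11% and 2.46% of all genes tested. The median log2 difference of the list was 0.12. Stat5a, which drives Pim1 in many blood cells, was between 0.948 and 1.33 FPKM in the control tumors and between 1.27 and 1.79 FPKM in the swimming tumors, with a log2 difference of 0.19 (SE 0.07, limma adjusted p = 0.889). All 6 swimming tumors lay above the control median, and the groups overlapped at their edges. Stat2 was at 5.98 ± 0.835 and 8.52 ± 2.50 FPKM, Stat4 at 0.343 ± 0.0907 and 0.526 ± 0.192 FPKM, and Stat3 at 12.1 ± 0.888 and 13.1 ± 0.577 FPKM, each with overlapping groups. Over the same tumors the T cell marker sum was 9.17 ± 3.45 FPKM in control and 15.8 ± 4.93 FPKM in swimming tumors. Of its 10 genes, 6 were higher at the unadjusted threshold, against 3.11% of all genes tested. The part of the T cell markers in the cytokine and STAT differences and in the Pim2 level was not tested.

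Of the 10 STAT targets induced along with the PIM genes, feedback inhibitors among them, none was past the unadjusted threshold. Among all genes tested, 5.56% were past it. The median log2 difference of these targets was 0.04. Socs3 was at 24.8 ± 3.04 and 28.2 ± 2.77 FPKM, Socs1 at 5.79 ± 1.24 and 7.17 ± 2.01 FPKM, and Cish at 0.459 ± 0.162 and 0.634 ± 0.171 FPKM in the control and swimming groups. Socs2 was at 1.67 ± 0.273 and 1.33 ± 0.390 FPKM. The most abundant genes of the list, Ccnd1 (222 ± 16.3 and 236 ± 16.8 FPKM) and Mcl1 (132 ± 10.3 and 131 ± 12.4 FPKM), encode a cyclin and a survival factor. Of 12 genes of NF-kappa-B subunits and inhibitors 1 was higher, Rel, against 3.11% of all genes tested. Rel was at 2.49 ± 0.135 and 2.88 ± 0.308 FPKM, and Nfkb1 was at 12.7 ± 0.464 and 12.7 ± 0.739 FPKM.

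Of 24 tested substrates 1 was higher and 2 were lower, against 3.11% and 2.46% of all genes tested. The median log2 difference of the list was 0.01. Foxo1, a transcription factor that these kinases and AKT restrain, was between 3.29 and 4.19 FPKM in the control tumors (median 3.90) and between 2.71 and 3.49 FPKM in the swimming tumors (median 3.00), and the groups overlapped between control 3 and swimming 1. Its log2 difference was -0.25 (SE 0.07, limma adjusted p = 0.889), and all 6 swimming tumors lay below the control median. Myc, given above by tumor, was at 33.7 ± 5.82 and 26.1 ± 3.82 FPKM, with a log2 difference of -0.35 (SE 0.12, limma adjusted p = 0.889), and all 6 swimming tumors lay below the control median. Pfkfb3, an enzyme that stimulates glycolysis, was at 2.39 ± 1.15 and 3.55 ± 0.764 FPKM. Of the 4 tested partners in lymphoma, which include Myc, 1 was lower.

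The arm shared with AKT and mTOR and the list of chaperones and phosphatase subunits had no gene past the unadjusted threshold. These lists held 17 and 5 tested genes, with median log2 differences of 0.02 and -0.03. At that threshold 5.56% of all genes tested passed. Rps6, a ribosomal protein and a readout of this arm, was at 1057 ± 48.5 and 1070 ± 146 FPKM, and Eif4ebp1, the translation repressor that PIM2 and mTOR phosphorylate, at 138.8 ± 15.0 and 129 ± 10.3 FPKM. Hsp90ab1 was at 982 ± 52.6 and 1008 ± 39.1 FPKM, and Hsp90aa1 at 211 ± 18.1 and 218 ± 22.9 FPKM. These values are RNA levels, and no protein or phosphorylation was measured.

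**Figure D4:**
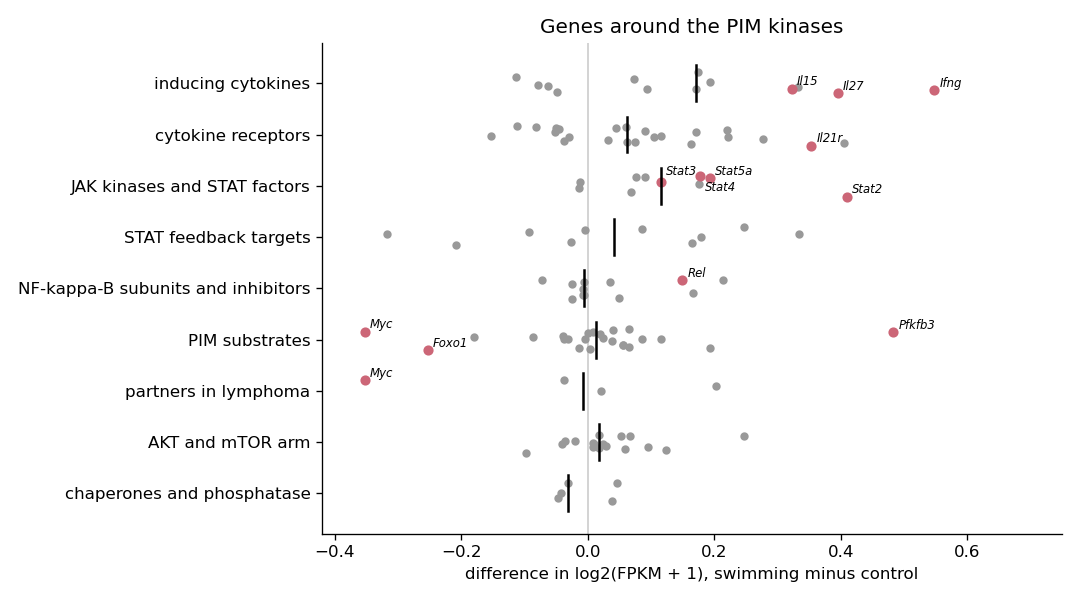
Difference in log2(FPKM + 1) between swimming and control tumors (n = 6 each) for the tested genes of 9 lists around the PIM kinases; each point is a gene, red and named where the unadjusted p in limma was below 0.05, and a black bar is the median of the list. Of the JAK and STAT list 4 red points are shown, all above 0, and the substrate list has Myc and Foxo1 below 0 and Pfkfb3 above it.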

How the data were processed

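Libraries of RNA depleted of rRNA from 12 tumors (6 control, 6 swimming) were used. The authors aligned reads with HISAT2 2.0.5 and assembled and quantified genes with StringTie 1.3.3, and they deposited 1 table per tumor with the FPKM of each gene. The study's methods name the human build hg38, the submitters' processing notes name hg38 and GRCm38, and the gene identifiers are mouse Ensembl identifiers. Gene symbols and positions came from GENCODE M21 (GRCm38), which matched 30542 of 30630 identifiers, and promoters from the RefSeq promoter table (GRCm38.p6). No read counts were used here, so the depth in reads is unknown.

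FPKM were transformed as log2(FPKM + 1), which understates fold changes of low genes, and genes that reached 0.1 FPKM in 6 or more tumors were fitted in limma 3.58.1 (R 4.3.3; lmFit, eBayes with trend) with the group as the only term and Benjamini-Hochberg adjustment over 19018 genes. Correlations were computed in Python 3.11.15. The fit and the correlation test were tested on simulated data. The members, the gene lists and the tests were chosen with earlier results of these data known. The genes named are the members, their nearest neighbours among the genes tested, 10 partners for correlation and the 4 genes most like each member. The most abundant marker of each cell type is also named. In each list the genes past an unadjusted p of 0.05 are named, or else the 2 most abundant. Alternatives were other pseudocounts, filters and scalings, a fit without trend, a replicate block and leaving out each tumor. Some genes of the lists enter the counts but are not reported here singly, nor drawn.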

Additional observations from a re-analysis of the deposited data

Results flagged for a closer look

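Of 146 groups of 6 values examined, 13 had a highest or lowest tumor that stood apart by Dixon's criterion, and chance flags about 1 in 20 groups, or 7.3 here. None was a value of Pim1, Pim2 or Pim3.

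Swimming 5, which had the highest Pim2 and the lowest Pim3 level of all tumors, stood apart in 6 of them. Its C1qa level was 515 FPKM, against 339 to 391 FPKM in the other swimming tumors, and its macrophage marker sum was 1187 FPKM, against 801 to 905 FPKM. Its Fabp4 level was 20.3 FPKM, against 8.78 to 11.7 FPKM, and its adipocyte marker sum was 27.3 FPKM, against 9.22 to 13.9 FPKM. C1qtnf9, one of the genes most like Pim2, was at 2.01 FPKM there, against 1.28 to 1.54 FPKM, and Tmem62, one of the genes most like Pim3, was at 0.994 FPKM, against 1.25 to 1.299 FPKM. These 6 flags are not independent. Fabp4 supplied 78.4% of the adipocyte marker sum over the 12 tumors, and C1qa 42.5% of the macrophage marker sum. C1qtnf9 and Tmem62 were picked for their correlation with Pim2 and Pim3 in these same tumors. Without swimming 5 the log2 difference of Pim3 was -0.43.

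In control 1, Fabp4 was at 44.7 FPKM, against 6.62 to 11.2 FPKM in the other control tumors, and the adipocyte marker sum was 74.1 FPKM, against 6.66 to 11.6 FPKM. In control 2, the shallowest library, Gm26885, which overlaps Pim1, was at 0.443 FPKM, against 0.624 to 0.731 FPKM. In control 6, the muscle gene Acta1 was at 88.2 FPKM, against 0.362 to 30.9 FPKM, and the skeletal muscle marker sum was 179.8 FPKM, against 1.52 to 57.2 FPKM. In swimming 4, Hbb-bs was at 412 FPKM, against 52.0 to 118 FPKM, and the erythroid marker sum was 1239 FPKM, against 152 to 363 FPKM.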

How the results depend on the processing

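The log2 difference of Pim3 was between -0.56 (without control 3) and -0.43 (without swimming 5) when 1 tumor was left out, and between -0.50 and -0.48 under the other alternatives. That of Pim1 was between 0.06 and 0.15 and that of Pim2 between 0.06 and 0.18 with 1 tumor left out, and 0.10 to 0.12 and 0.11 to 0.20 otherwise. The correlation of Pim1 and Pim3 changed sign, to -0.24, without centring on the group, and ran from -0.20 to 0.45 with 1 tumor left out. The count of network genes past the unadjusted p ran from 8 to 21 with 1 tumor left out and from 10 to 15 otherwise, and that of all genes from 833 to 1443 and from 729 (filter of 1 FPKM) to 1445 (no filter). Same-numbered tumors of the groups did not deviate together (mean r -0.12, against 0.02 for different numbers, and 0 of 12 tumors correlated best with their own number), so the numbers were not taken as a pairing. With a replicate block, 10 network genes and 892 of all genes were past the unadjusted p and none past the adjusted one. Of all genes, 3 passed the adjusted p without control 4 and 2 without swimming 1. The causes of these changes were not tested. With 6 tumors a group and no read counts, the depth of single low genes such as Pim2 is unknown.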

Other observations

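Epo, which encodes erythropoietin and is in the list of inducing cytokines, is listed at 0 in 4 tumors (2 control, 2 swimming) and between 4.52 and 12.3 FPKM in the other 8, and was singled out after its values were seen. Il2, Il3 and Il21 of the same list were not analysed here.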
